A study of Homo sapiens with 8 samples.

Results

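RPS6KL1, TNS3 and DEGS2 are genes beside strong ER sites that were lost on CDK12 knockdown, meaning that both siCtrl libraries listed a peak and no siCDK12 library did. They are 3 of the 62700 genes of GENCODE release 44. The genes were chosen from the measured peaks: the lost sites were ranked by the mean percentile of -log10 q in the siCtrl libraries, and these genes lie nearest to the sites ranked 2, 4 and 5 of 455. The sites ranked 1 and 3, nearest to PFDN4 and to a long noncoding RNA gene, serve for comparison only. The presence of these peaks in siCtrl and their absence in siCDK12 are therefore given as a description, with no test. Every ER peak in each gene body and 50 kb either side was collected, which gave 18 of the 35944 deposited peaks.

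ER was mapped by ChIP-seq in LY2 cells, a single endocrine-resistant ER+ breast cancer cell line. The cells were serum depleted for 24 hours in medium free of hydroxytamoxifen, transfected for 48 hours with siCtrl, a nontargeting control, or with siCDK12, an siRNA pool against CDK12, and then given 1 µmol/L β-estradiol for 1 hour. All libraries were therefore from estradiol-treated cells. Each condition had 2 libraries with a peak list, numbered 2 and 3 for siCtrl and 3 and 4 for siCDK12. The lists do not measure CDK12 levels, so the knockdown could not be checked in them, and the labels do not say whether replicates were separate cultures.

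The siCtrl lists were of unequal length, with 15149 peaks for replicate 2 and 6913 for replicate 3, while siCDK12 had 6653 and 7229. The median fold enrichment per library was between 3.85 and 3.97. Read depth is not given in such lists, and the genome-wide background solved from them was between 1.01 and 1.23 fragments per position. All lists reached down to a p-value of 0.001, and a q-value of 0.05 or more is stated below for each single peak that had one. Peaks with a q-value under 0.05 were merged into 25365 sites where they overlapped by at least 1 bp. Of all merged sites 1.79% were lost, and of the 667 sites with a peak in both siCtrl libraries 68.2% were lost. These shares are the background to the members and come from the contrast that chose them.

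ER, encoded by ESR1, is a transcription factor that binds DNA as a dimer once estradiol is bound, and recruits co-activators such as the Mediator subunit MED1. Its classic binding sequence, the estrogen response element, is a palindrome of a pair of half-sites that face each other across a short gap. CDK12 is a kinase that acts with cyclin K on RNA polymerase II during elongation. Tensin-3, the product of TNS3, is a focal adhesion protein that links integrins to the actin cytoskeleton. DEGS2 is a desaturase and hydroxylase of sphingolipid synthesis that makes phytoceramide. RPS6KL1 is a kinase-like gene named for its similarity to the ribosomal S6 kinases.

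The GRCh38 reference sequence of the 3 lost sites is shown because each held an estrogen response element close to the summit. The element searched was GGTCANNNTGACC allowing 1 mismatch over the 10 fixed bases, which reads the same on both strands. Each sequence is the plus strand of the merged site, and capitals mark the element.

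RPS6KL1 site, chr14:74922438-74922679: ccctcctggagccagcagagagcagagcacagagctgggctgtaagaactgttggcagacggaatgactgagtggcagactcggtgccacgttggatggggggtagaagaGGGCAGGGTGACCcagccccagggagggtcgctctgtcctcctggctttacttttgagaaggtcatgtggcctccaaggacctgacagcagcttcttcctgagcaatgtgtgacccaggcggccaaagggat

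TNS3 site, chr7:47542123-47542375: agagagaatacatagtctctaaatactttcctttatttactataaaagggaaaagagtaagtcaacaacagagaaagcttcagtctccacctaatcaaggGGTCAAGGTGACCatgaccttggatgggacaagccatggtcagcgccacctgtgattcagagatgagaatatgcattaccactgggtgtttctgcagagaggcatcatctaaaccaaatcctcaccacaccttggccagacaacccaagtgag

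DEGS2 site, chr14:100137258-100137539: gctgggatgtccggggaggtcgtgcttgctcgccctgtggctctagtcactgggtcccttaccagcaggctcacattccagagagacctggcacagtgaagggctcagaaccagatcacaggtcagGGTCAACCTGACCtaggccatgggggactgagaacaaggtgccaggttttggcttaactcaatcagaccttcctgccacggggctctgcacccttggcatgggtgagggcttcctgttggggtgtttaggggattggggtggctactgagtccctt

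The TNS3 and DEGS2 sites held the palindrome with no mismatch. The RPS6KL1 element differed from it by T3G, counted from 1 at its first base. Relative to the summit, the centre of the element was at -7 bp at RPS6KL1, -20 bp at TNS3 and -16 bp at DEGS2. An element lay within 100 bp of the summit at 27.3% of the 455 lost sites. The share was 26.2% over all 667 sites with a peak in both siCtrl libraries. Lost sites made up 68.2% of these 667, so these shares do not compare lost with kept sites. Over all sites, most of them in a single library, the share was 1.91%, and it was 0.371% in windows of the same length centred 1000 bp downstream. A perfect palindrome was found at 61 of the 25365 sites. The ranking that chose the genes did not use element content, but elements were more common among the stronger sites, as given below.

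Other motifs were searched as exact matches on both strands within 100 bp of the summit. The AP-1 motif was searched as TGANTCA, a loose pattern that allows any middle base. The TNS3 site held a match to it, TGATTCA, centred at 29 bp from the summit, and the FOXA motif TATTTAC, centred at -90 bp. Neither of these was found at the RPS6KL1 or DEGS2 site. The GATA motif AGATAA was found at none of the 3 sites. Over all sites, 6.50% held TGANTCA, 3.23% held TGTTTAC or TATTTAC and 7.27% held AGATAA, and in the windows beside them the shares were 6.37%, 7.67% and 15.2%. These matches describe the letters in the window and not a bound factor. The half-site GGTCA alone was found at all 3 sites, at 72.0% of the 667 sites, at 36.9% of all sites and at 25.7% of the windows beside them.

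At RPS6KL1 (ENSG00000198208, chromosome 14 from 74903951 to 74923302, minus strand), the site lay in intron 1 of the canonical transcript, 741 bp from the gene start. The summit was in no exon of the 16 annotated transcripts. RefSeq lists a pair of promoter windows for this gene on GRCh38, each from 250 bases before to 50 after a start. The site, 242 bp wide, lay wholly inside the second of them, from 74922393 to 74922692, and its summit was 119 bp upstream of that start. The element was the only one in the 6 RefSeq promoter windows of the 3 genes, and 0.817% of all 35116 such windows held one. None of the other windows of the 3 genes held a peak in any library. In siCtrl replicate 2 the peak had a fold enrichment of 13.5, a pileup of 49 fragments over a local background of 2.70 and a -log10 q of 38.5. In siCtrl replicate 3 it had a fold of 14.5, a pileup of 58 over 3.07 and a -log10 q of 46.8. The folds were close to each other (mean 14.0 ± 0.688, SD, n = 2), the summits were 3 bp apart, and neither siCDK12 library listed a peak. The peak ranked 76 and 35 by -log10 q among all peaks of these libraries.

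At TNS3 (ENSG00000136205, chromosome 7 from 47275154 to 47582558, minus strand), the site lay in intron 1 of the canonical transcript, 40309 bp from the gene start. Of the 15 annotated TNS3 transcripts, 3 spanned the summit. RefSeq also lists a TNS3 promoter window from 47537423 to 47537722, which was much nearer to the site than the gene start and did not overlap the site. In siCtrl replicate 2 its fold was 14.2, with 59 fragments over a local background of 3.21 and a -log10 q of 47.2. In siCtrl replicate 3 its fold was 11.2, with 53 fragments over 3.82 and a -log10 q of 35.8. The mean fold was 12.7 ± 2.16 (SD, n = 2), the summits were 4 bp apart and the ranks were 60 and 55. Again, no siCDK12 library listed a peak here. The TNS3 site held 4 half-sites and a second element, with 1 mismatch, whose centre was 6 bp from that of the first.

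At DEGS2 (ENSG00000168350, chromosome 14 from 100143957 to 100159645, minus strand), the site lay outside the gene, 6418 bp beyond its 3′ end and 22239 bp from its start. It lay inside EVL (ENSG00000196405, chromosome 14 from 99971449 to 100144236, plus strand), in intron 9 of the canonical transcript, and 1 of the 24 EVL transcripts has an exon there. EVL encodes an actin regulator of the Ena/VASP family. The site was assigned to DEGS2 because that gene's start was the nearest, with each gene entered by its outermost start alone. The start of the canonical EVL transcript was 71984 bp away and the outermost EVL start 166.0 kb. Distances to the other EVL transcript starts are not given here. For siCtrl replicate 2 the fold was 15.7, with 56 fragments over a local background of 2.63 and a -log10 q of 48.1. For siCtrl replicate 3 it was 10.3, with 46 fragments over 3.58 and a -log10 q of 29.3. These were the least alike of the siCtrl pairs (mean fold 13.0 ± 3.84, SD, n = 2), the summits were 12 bp apart and the ranks were 57 and 66. No siCDK12 library listed a peak at the site, and none listed one anywhere else in the DEGS2 window. The median lost site was weaker, with folds of 5.67 and 4.70 in the siCtrl libraries.

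**Figure D1:**
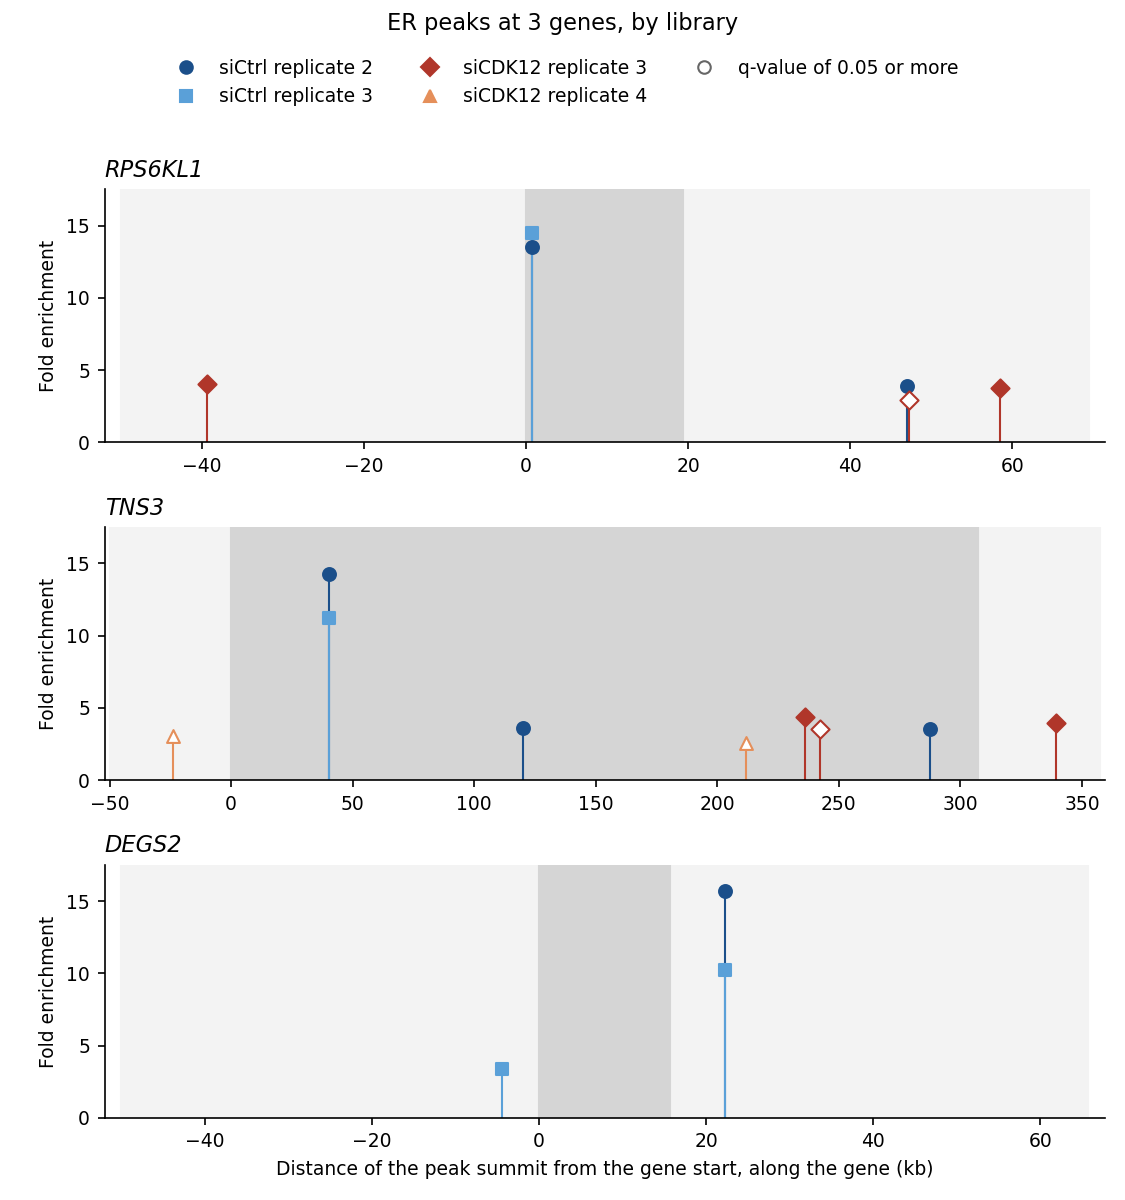
Each panel plots the peaks of 1 gene by the distance of their summit from the gene start (kb) and by fold enrichment, with the gene body in dark grey, the 50 kb flanks in light grey and open symbols for peaks with a q-value of 0.05 or more. In each panel the siCtrl peaks of the lost site stand between 10.3 and 15.7, and all other peaks are at or under 4.39.

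The absence of a listed peak sets a limit on the siCDK12 signal. In the siCDK12 libraries the other peaks of these loci were listed with pileups of 8 to 13 fragments, against 46 to 59 at the lost sites in siCtrl. Over the local background of the siCtrl peaks, which was 2.63 to 3.82 fragments, a pileup of 9 to 11 would have reached the p-value of 0.001, or between 16.1% and 23.9% of the siCtrl pileup. The local background at these sites in siCDK12 is not part of the lists. Lower signal down to such a level cannot be told apart from no signal. The nearest siCDK12 peak to the summit was 40.1 kb away at RPS6KL1, 64.0 kb at TNS3 and 71.9 kb at DEGS2.

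The other 12 peaks of the 3 loci were weak, and each was found in a single library. Their fold enrichment was between 2.56 and 4.39 (median 3.58), and 8 of them had a q-value under 0.05. Of all places with a deposited peak, 95.0% had it in a single library. Outside the lost sites the 3 windows held 18.7 peaks per Mb over the 4 libraries together, against 11.6 per Mb of the genome. Chromosomes 7 and 14 as a whole were also dense in peaks: with 5.16% of the sequence, chromosome 7 carried 8.73% to 10.9% of each list, and chromosome 14, with 3.47%, carried 5.23% to 6.78%. None of the 12 peaks had an estrogen response element within 100 bp of its summit (0 of 12, which allows a share of up to 25%). Their best matches had 2 to 4 mismatches. Over all merged sites the share with an element was 1.91%, so 0 of 12 does not set these peaks apart.

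Near RPS6KL1, siCDK12 replicate 3 had 3 weak peaks and siCtrl replicate 2 had 1. A pair of these lay at the start of PROX2, a homeobox gene: the siCtrl replicate 2 peak (fold 3.93) and the siCDK12 replicate 3 peak (fold 2.97, q-value of 0.05 or more), whose summit was 112 bp inside exon 1 of its canonical transcript. They were 93 bp apart and did not overlap. Another siCDK12 replicate 3 peak (fold 3.75) lay in intron 2 of PROX2. The last (fold 4.07) lay outside any gene, 7.01 kb from the start of PGF, which encodes placental growth factor.

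At TNS3, siCtrl replicate 2 had weak peaks in introns 4 and 24, with folds of 3.62 and 3.54. The siCDK12 replicate 3 peaks lay in introns 17 and 20, with folds of 4.39 and 3.52, and beyond the 3′ end of the gene, with a fold of 3.95. Of these, the intron 20 peak had a q-value of 0.05 or more. The siCDK12 replicate 4 peaks, in intron 16 (fold 2.56) and 2.21 kb from the start of the noncoding RNA gene LINC01447 (fold 3.08), both had a q-value of 0.05 or more. So the siCDK12 libraries did list weak peaks in the TNS3 window, at other places. Only the intron 17 peak lay inside the gene with a q-value under 0.05. At DEGS2 the only other peak, in siCtrl replicate 3, lay 4.45 kb upstream of the gene start with a fold of 3.36.

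Outside the 3 lost sites, the siCtrl libraries had 3 and 1 peaks and the siCDK12 libraries 6 and 2 (means 2 ± 1.41 and 4 ± 2.83, SD, n = 2). The numbers overlapped between conditions (two-sided exact permutation test, p = 0.667). With 2 libraries per condition the smallest p-value of this test is 0.333, and p-values measure only the spread between these libraries. Counting peaks with a q-value under 0.05, siCtrl had 3 and 1 and siCDK12 had 4 and 0. As a share of all peaks of the library, since the lists differed in length, the values were 0.0198% and 0.0145% in siCtrl and 0.0902% and 0.0277% in siCDK12, which did not overlap (exact permutation p = 0.333, the smallest possible). With 100 kb either side of the genes the numbers were 3 and 2 in siCtrl and 6 and 4 in siCDK12, again without overlap (exact permutation p = 0.333).

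The 3 sites were then placed among all sites with a peak in both siCtrl libraries. By mean percentile they ranked 42, 51 and 55 of 667. Of the 54 sites ranked above the DEGS2 site, 34 had a peak in both siCDK12 libraries, 16 in 1 of them and 4 were lost, and 24 held an element. Lost sites made up 1 of the strongest 25, 2 of the next 25, 23 of ranks 51 to 100 and 76 of the 100 after these. The RPS6KL1 site was 1 of the 2 lost sites of its bin, and the TNS3 and DEGS2 sites lay at the top of a bin where 46.0% were lost. The bins were set after the values were seen, and the ordering uses the values that chose the genes, so it was not tested.

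**Figure D2:**
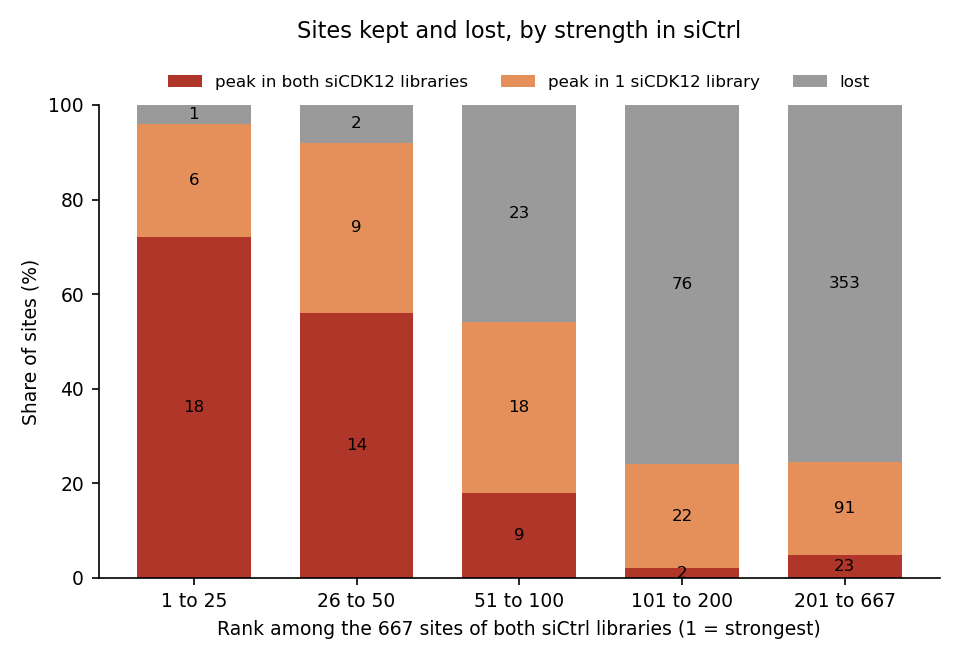
Bars give the share (%) of the 667 sites of both siCtrl libraries that had a peak in both, 1 or none of the siCDK12 libraries, by rank of mean percentile of -log10 q in siCtrl, with site numbers printed in the bars. Lost sites are 1 of 25 and 2 of 25 in the first bars and 23 of 50 in the third, which holds the TNS3 and DEGS2 sites.

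**Figure D3:**
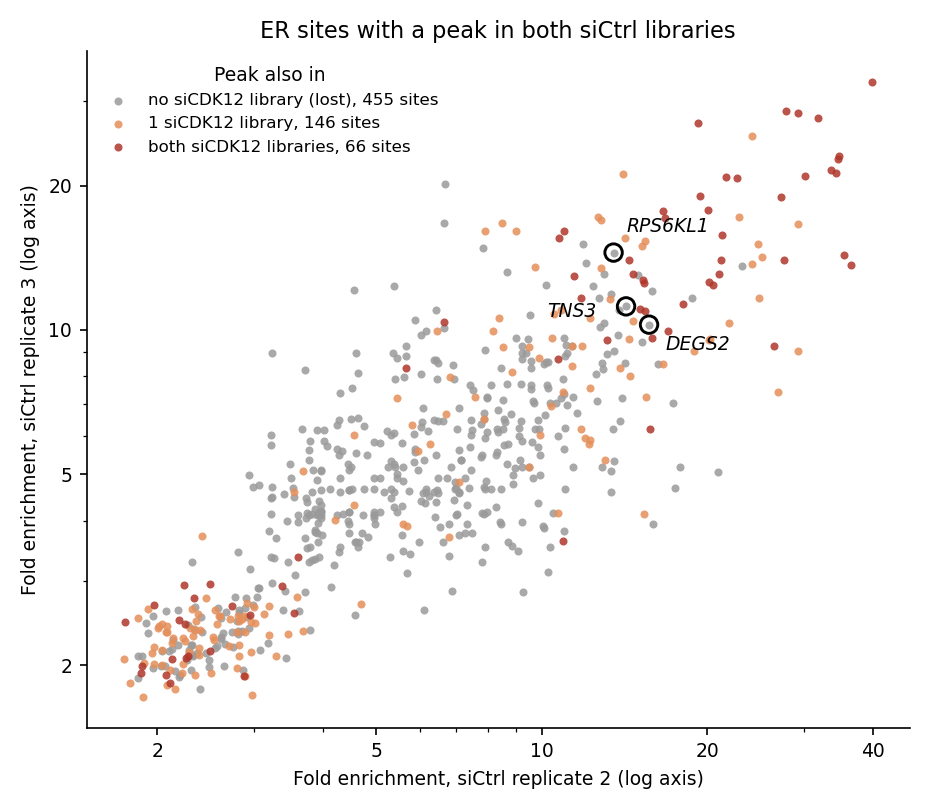
Points are the 667 sites by fold enrichment in siCtrl replicate 2 and siCtrl replicate 3 (log axes), coloured by the number of siCDK12 libraries with a peak, and circles mark the sites of RPS6KL1, TNS3 and DEGS2. The circled sites, with folds of 10.3 to 15.7, stand among sites of all 3 kinds, and most sites above 20 on both axes are red.

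Sites of like fold enrichment did not share 1 pattern. Besides the 3 genes' sites, 27 sites had folds between 10.3 and 15.7 in both siCtrl libraries. Of these, 9 had a peak in both siCDK12 libraries, 9 in 1 of them and 9 were lost. Where a siCDK12 peak was present, its fold was 2.80 to 10.8 (median 5.83, 27 peaks) and its pileup 10 to 39 fragments (median 19), against 25 to 94 in siCtrl at the same sites (median 49.5). An element was found at 5 of the 9 lost sites and at 4 of the 18 others. This comparison was chosen after the values were seen and was not tested. At the 66 sites with a peak in all 4 libraries, the mean siCDK12 fold was 44.8% of the mean siCtrl fold (median, range 17.6% to 129.7%).

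**Figure D4:**
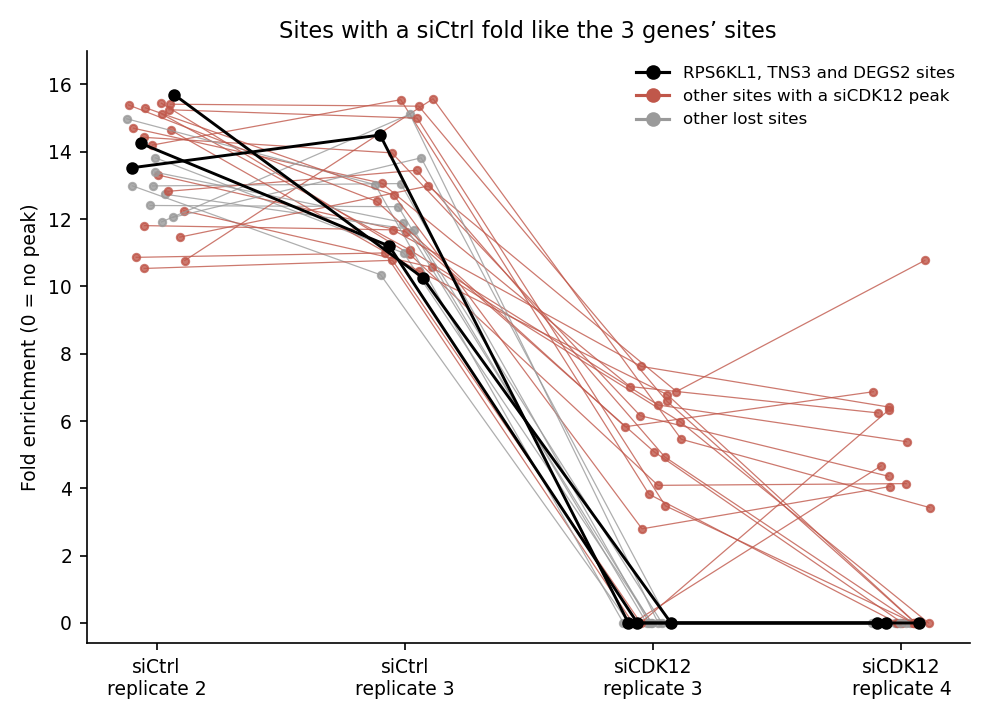
Lines join the fold enrichment of 1 site in the 4 libraries, with 0 where no peak with a q-value under 0.05 was listed, for the sites of RPS6KL1, TNS3 and DEGS2 (black) and the 27 other sites of like siCtrl fold. Of the others, 18 have at least 1 siCDK12 value, between 2.80 and 10.8, and 9 have none.

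The neighbours in rank were much alike in mean percentile, but not all were alike in fold or pileup. The PFDN4 site had folds of 7.97 and 6.12 and pileups of 226 and 198 in siCtrl replicates 2 and 3. The MANEAL site had folds of 23.2 and 13.6, while the MIR4648 site, with 13.4 and 11.9, lay within the range of the 3 genes' sites. Just inside the choice of 5 sites, the DEGS2 site had a mean percentile of 99.12. Just outside, the site nearest to MANEAL (382 bp from its start) had 99.08 and that nearest to MIR4648 (12608 bp) had 99.06. All of the 8 highest ranked lost sites held an element, 4 of them with no mismatch. Of the 54 sites of both siCtrl libraries ranked above the DEGS2 site, 4 of them lost, 24 held an element. These counts were not tested against each other. The elements of the highest ranked lost sites are shown beside each other, for the 7 sites whose sequence is given here. Capitals mark the element.

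PFDN4: GGTGAACCTGACC
RPS6KL1: GGGCAGGGTGACC
long noncoding RNA gene on chromosome 4: GGTCACGGTGACA
TNS3: GGTCAAGGTGACC
DEGS2: GGTCAACCTGACC
MANEAL: GGTCAGTGTGACC
MIR4648: GGTCAGGGTGACC

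By the distance in percentile of -log10 q over the 4 libraries, with 0 for no peak, the site most like that of RPS6KL1 and of TNS3 was the chromosome 4 site nearest to ENSG00000286176 (distances 0.348 and 0.121 percentile points). Next came the TNS3 site for RPS6KL1 (0.407) and the DEGS2 site for TNS3 (0.223), followed for both by the MIR4648 site (0.545 and 0.226). For DEGS2 the most alike were the sites nearest to MIR4648 (0.193), MANEAL (0.211) and TNS3 (0.223). All of these sites were lost, which the measure itself favours.

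Relatives of the 3 genes were examined in the same windows. Of the other 23 genes of the tensin family, the ribosomal S6 kinases and ceramide synthesis, 3 had a site in both siCtrl libraries and 2 of these were lost. Of all 20033 protein-coding genes, 3.70% had a site in both siCtrl libraries within 50 kb and 2.85% had a lost one, so the counts are of few genes. Among the tensins, TNS4 had a site at IGFBP4, 52.8 kb from its own start, with folds of 22.8 and 17.2 in siCtrl and 4.63 in siCDK12 replicate 3, and no peak in siCDK12 replicate 4. TNS1 had a peak in siCtrl replicate 3 alone, and TNS2 had none in siCtrl and 1 in siCDK12 replicate 4. In the window of RPS6KB1, which encodes the S6 kinase of the mTOR pathway, a lost site had folds of 3.80 and 2.37 and no element. It lay outside the gene, 79.4 kb from the RPS6KB1 start and nearer to the start of another gene. The whole RPS6KB1 window held 13 and 4 listed peaks in siCtrl replicates 2 and 3, and 7 in each siCDK12 library. In the window of CERS1, a ceramide synthase gene, a lost site had folds of 4.29 and 5.50 and no element. This site too lay outside the gene, 63.9 kb from the CERS1 start and nearer to the start of another gene. DEGS1, the paralog of DEGS2, had no peak in siCtrl and 1 in siCDK12 replicate 3.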

How the data were processed

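ER peak lists of 2 siCtrl and 2 siCDK12 libraries of LY2 cells were analysed. Per the study's methods, the authors filtered 50 bp single-end reads with SOAPnuke, used BWA-MEM for alignment against GRCh38 and ran MACS2 on each library. They excluded 1 divergent replicate per condition, which was not analysed here, nor were the input libraries. The deposited fold is the ratio of fragment pileup over local background at the summit, with 1 added to each, so it is lower than their plain ratio. Significance was deposited as the -log10 of p-value and q-value. The score deposited beside them equals 10 times the former, cut to a whole number. The libraries were not scaled to each other.

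The members, gene lists and tests were chosen with earlier results of these data known. The lists reach a p-value of 0.001, so peaks are given as deposited and sites were built from peaks with a q-value under 0.05 on the main chromosomes. Pileup and background were solved from the fold and the Poisson p-value, and whole pileups fitted within 0.01 of the -log10 p-value for at least 99.97% of peaks. Each peak's gene came from GENCODE release 44. The genes named were the 3 members, other genes at a listed peak, the nearest genes of the 8 highest ranked lost sites, the 3 most alike sites per member and relatives with a site in both siCtrl libraries. TNS1, TNS2 and DEGS1, relatives without such a site, were named after their values were seen, as were PGF and LINC01447, the genes nearest to a peak outside any gene. Promoter windows and their sequence were RefSeq's (GRCh38.p14). Functions were tested on simulated data. The study's DiffBind test needs read counts and was not repeated. Scripts ran under Python 3.11.15 with pandas 2.3.3, numpy 2.4.6, pysam 0.24.0, SciPy 1.17.1 and matplotlib 3.10.9.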

Additional observations from a re-analysis of the deposited data

How the results depend on the processing

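Of 48 recomputed values, 14 moved, and several of the others could not have. A count moved where it changed by over 1.5 times, a rank where it changed by more than the SD of the ranks in the siCtrl libraries, and the tested difference where its direction was no longer there. The 3 sites had no siCDK12 peak in the lists as deposited either, nor when each peak was replaced by its summit with 100 bp on both sides. Given that, stricter thresholds and leaving out a library could not change their lost status, and wider or narrower windows could not lose elements this close to the summits, so these settings say nothing about stability. The number of lost sites at the 3 loci ranged from 3 to 6 when each library was left out, and was 6 without siCtrl replicate 3, because siCtrl replicate 2 peaks then needed no second library. The difference in peaks outside these sites, siCDK12 minus siCtrl, was 2.0 per library. It was 0.0 with a q-value under 0.05, with a -log10 q of at least 3, where no peak is left, and with a flank of 10 kb. It was 2.5 with a flank of 100 kb, and 0.0418 percentage points as a share of the library's peaks, where in both cases the conditions did not overlap. Without a library it ranged from 0.0 to 4.0, and it was 0.0 without siCDK12 replicate 3 and 4.0 without siCDK12 replicate 4. The exact permutation p was between 0.333 and 1.0 in all of these.

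The rank among lost sites depended on the measure. By fold enrichment RPS6KL1, TNS3 and DEGS2 ranked 2, 10 and 14, and by summit pileup they ranked 36, 35 and 44. By -log10 q in siCtrl replicate 2 alone RPS6KL1 ranked 15 and TNS3 8, and in siCtrl replicate 3 alone TNS3 ranked 7 and DEGS2 11. No paired analysis was possible because just 1 number, 3, occurs under both siRNAs.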

Other observations

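The TNS3 and DEGS2 elements shared an arrangement that was noticed in the printed sequences and was then counted over all sites, with no test. In both, a further half-site lay 1 base beyond the perfect palindrome, which gives the pattern GGTCANNNTGACCNTGACC of 3 half-sites in 19 bases. At TNS3 it was read on the plus strand and at DEGS2 on the minus strand.

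TNS3, chr7:47542223-47542241: GGTCAAGGTGACCATGACC

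DEGS2, chr14:100137378-100137396: GGTCAGGTTGACCCTGACC

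On either strand, the pattern was found within 100 bp of the summit at 5 of the 25365 sites. Of these, 2 were among the 455 lost sites, namely those of TNS3 and DEGS2, and 1 was among the 212 sites with a peak in both siCtrl libraries that were not lost. No window centred 1000 bp downstream of a site held it. With so few sites, whether the arrangement differs between lost and other sites was not tested.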
